A study of Homo sapiens with 7 samples.

Results

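The collagen genes were taken as all protein-coding RefSeq genes (GRCh38.p14, the hg38 build of the peak lists) whose symbol is COL, digits, A and digits. They numbered 44 of 19970 protein-coding genes. An open region was assigned to a collagen gene where its summit lay in the gene span or within 50 kb of either end, which gave 577 of the 129577 open regions of the series. Chromatin accessibility was measured by ATAC-seq, in which the Tn5 transposase inserts adapters into open DNA, in H1, a widely used human embryonic stem cell line. The libraries were undifferentiated H1 cells (hESC, 2 libraries), definitive endoderm made from them (hDE, 2), anterior foregut endoderm (hAFE, 2) and pharyngeal foregut endoderm (hPFE, 1), all from the same line, with no day of culture or agent given in the labels. Only the libraries of the first and second stage carry a label that they were re-analysed from other work, so that for hAFE against hDE and for hPFE against hESC the stage and the origin of the library cannot be told apart. The hPFE stage had no replicate, and the labels do not say whether replicates were separate cultures, so that the spread between replicates may be technical.

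Collagens are the main structural proteins of the extracellular matrix, built from 3 chains that wind into a triple helix. The fibrillar collagens form the banded fibrils of connective tissue, collagen IV forms the sheet of the basement membrane on which every epithelium rests, and the other classes coat fibrils, link cells to the matrix or span the cell membrane. Endoderm is an epithelium on a basement membrane, whereas fibrillar collagens are made mostly by mesenchymal cells. ATAC-seq shows which DNA is open and not whether a gene is transcribed.

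Each library was deposited as a list of 298508 to 299374 peaks, with 1243 to 1489 of them at collagen genes. Depth was read from the background pileup of cut sites, solved from each library's peak values. It was 2.11 and 4.62 for the hESC replicates, 4.58 and 7.94 for the hDE replicates, 2.22 and 3.85 for the hAFE replicates and 5.66 for the hPFE library. The height of a summit is given below as its pileup of cut sites divided by that background (times background). In such bulk libraries, DNA that is less open in every cell and DNA that is open in fewer cells cannot be told apart. The 50000 regions with the highest −log10 p in a library are called strict. A region was called gained in a comparison where every library of the later stage had it among its strict regions and no library of the earlier stage had a deposited peak there, and lost in the reverse case. With 2 libraries against 2, an exact test cannot go below p = 0.333, so gains and losses carry no p. The stage markers went with the labels: strict regions at 4 pluripotency genes numbered 19 and 29 in hESC cells, 12 and 6 in hDE cells, 12 and 11 in hAFE cells and 9 in hPFE cells, and those at 5 definitive endoderm genes numbered 14 and 12, 32 and 26, 20 and 18, and 15 in the same order. At 6 anterior foregut and pharyngeal genes they numbered 26 and 24 in hESC cells, 37 and 32 in hDE cells, 33 and 34 in hAFE cells and 33 in hPFE cells, so this list did not set hPFE apart from hDE or hAFE.

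Nearly every collagen gene held strict regions in all 7 libraries. Between 211 and 249 strict regions per library lay at collagen genes, which was 0.422% to 0.498% of the strict regions of a library. The exceptions were COL6A1, which had no strict region in hDE replicate 2, and COL6A3, which had none in hPFE; both encode chains of collagen VI. A collagen gene had a median of 12 regions, against 8 for all protein-coding genes. The collagen genes were also longer, with a median of 144672 bp against 24190 bp for all protein-coding genes, and across the 44 genes the number of regions went with gene length (Spearman's rho = 0.721 across genes, which are not independent replicates). The range ran from 4 regions at COL9A2, a chain of a fibril-associated collagen, to 35 at COL25A1, a collagen that spans the membrane of neurons and is the longest of the 44 at 493934 bp. Of the 577 regions, 347 lay inside a collagen gene and 34 within 1 kb of the end of one, 30 lay in the windows of more than 1 collagen gene, 38 lay within 1 kb of the end of another protein-coding gene and 75 inside another gene. The gene table used gives spans without exons, so intron, exon and untranslated sequence were not told apart.

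**Figure D1:**
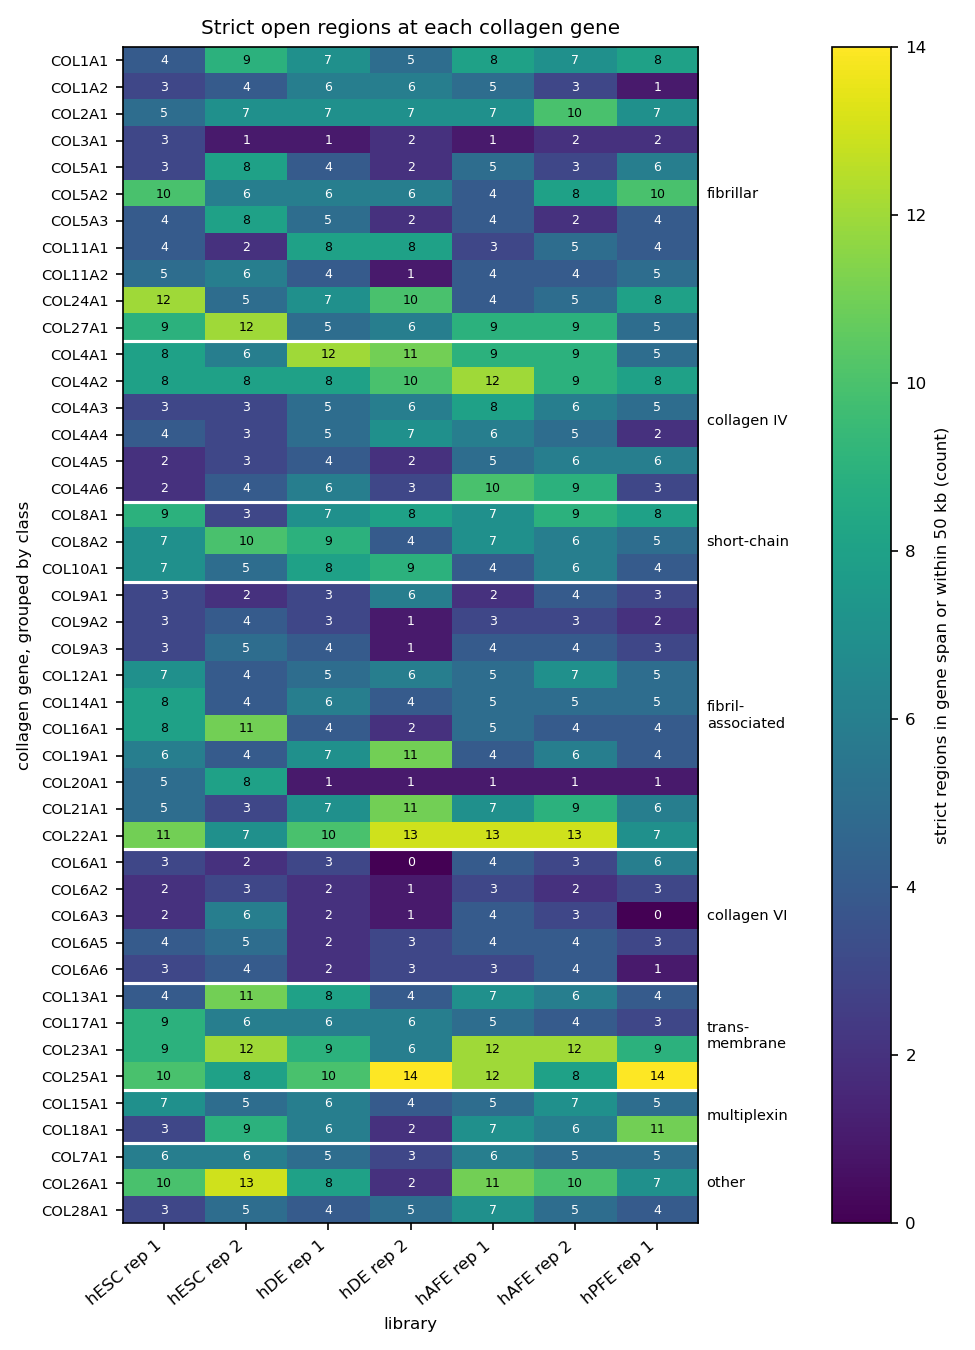
Strict regions at each of the 44 collagen genes (rows, grouped by class) in each of the 7 libraries (columns, in the order of the stages). The number in a cell and its colour give the count of strict regions in the gene span or within 50 kb; COL20A1 has 5 and 8 in the hESC libraries and 1 in each of the others, and COL25A1 reaches 14 in hDE replicate 2 and in hPFE.

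Of the 577 regions, 63 were strict in all 7 libraries (10.9%, against 11.2% of all regions), and they lay at 38 of the 44 genes. Of these 63, 22 lay within 1 kb of the end of another gene and 15 within 1 kb of a collagen gene's own end. At the other extreme, 249 regions were strict in 1 library alone. The same count over all regions was not made, so this number shows nothing particular to collagen genes. Collagen regions strict in 1 replicate and without a peak in its partner numbered between 0 and 11 (at most 1.91%, against at most 1.64% of all regions). Between single libraries of different stages such regions numbered between 18 and 80 (3.12% to 13.9%, against 4.35% to 16% of all regions).

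The starts of the collagen genes were open in most libraries. RefSeq promoter entries matched 32 of the 44 genes, with 44 starts between them. A summit lay within 1 kb of a start in all 7 libraries for 24 of the 32 genes (75.0%, against 74.3% of all protein-coding genes with an entry). It was strict in all 7 libraries for 16 of them (50%, against 56.8%), and COL28A1 had no summit at its start in any library. The 27 collagen starts with a summit in all 7 libraries had a median observed-over-expected CpG ratio of 0.727 over the 250 bases before the start, the 14 starts with a summit in 1 to 6 libraries had 0.280, and the 3 without had 0.213. Over all genes the medians were 0.817 for starts with a summit in all 7 libraries and 0.209 for starts with none.

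The promoters shown here are 5 of those with a strict summit at the start in all 7 libraries, chosen for the genes described below, and the middle and inner starts of COL21A1, of which the inner was gained in hPFE against hAFE. They are the 250 bases before the RefSeq start (GRCh38.p14), 5′ to 3′ on the strand of the gene, with capitals marking GGGCGG (the GC box bound by SP1 factors), CCAAT (the site of NF-Y), TATAAA (the TATA box) and AGATAA (a form of the site of GATA factors) on either strand.
COL4A1 (chr13:110307158-110307407, minus strand): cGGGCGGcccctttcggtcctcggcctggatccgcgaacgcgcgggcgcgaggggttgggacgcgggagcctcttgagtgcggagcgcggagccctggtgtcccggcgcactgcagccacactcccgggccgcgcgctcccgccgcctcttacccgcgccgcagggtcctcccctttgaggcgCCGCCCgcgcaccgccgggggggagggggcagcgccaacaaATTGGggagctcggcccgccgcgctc
COL5A1 (chr9:134641553-134641802, plus strand): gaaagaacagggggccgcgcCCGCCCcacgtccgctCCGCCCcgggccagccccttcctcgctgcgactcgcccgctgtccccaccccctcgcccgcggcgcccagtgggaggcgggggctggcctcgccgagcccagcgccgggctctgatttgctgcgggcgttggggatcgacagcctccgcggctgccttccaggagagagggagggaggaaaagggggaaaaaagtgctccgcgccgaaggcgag
COL6A2 (chr21:46097862-46098111, plus strand): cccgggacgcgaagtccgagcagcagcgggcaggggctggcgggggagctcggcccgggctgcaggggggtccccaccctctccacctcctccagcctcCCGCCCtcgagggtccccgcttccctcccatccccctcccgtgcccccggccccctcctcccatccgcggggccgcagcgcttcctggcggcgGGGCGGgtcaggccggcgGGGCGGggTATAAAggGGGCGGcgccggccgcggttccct
COL11A1 (chr1:103108523-103108772, minus strand): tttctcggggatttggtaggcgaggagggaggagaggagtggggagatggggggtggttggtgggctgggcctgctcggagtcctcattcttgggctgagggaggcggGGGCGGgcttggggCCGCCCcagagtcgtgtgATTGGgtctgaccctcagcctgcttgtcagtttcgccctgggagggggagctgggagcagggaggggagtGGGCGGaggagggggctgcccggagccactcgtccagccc
COL25A1 (chr4:109302659-109302908, minus strand): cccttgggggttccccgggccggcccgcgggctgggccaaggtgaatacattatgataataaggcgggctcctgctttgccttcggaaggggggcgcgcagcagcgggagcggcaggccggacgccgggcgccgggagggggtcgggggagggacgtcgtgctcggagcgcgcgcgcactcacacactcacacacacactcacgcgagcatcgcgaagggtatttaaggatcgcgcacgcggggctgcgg
COL21A1 middle start (chr6:56247581-56247830, minus strand): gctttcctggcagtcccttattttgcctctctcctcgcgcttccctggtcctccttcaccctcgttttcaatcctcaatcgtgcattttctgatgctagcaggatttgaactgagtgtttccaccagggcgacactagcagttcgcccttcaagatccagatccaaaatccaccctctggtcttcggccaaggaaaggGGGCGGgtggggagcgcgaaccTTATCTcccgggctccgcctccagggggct
COL21A1 inner start (chr6:56091663-56091912, minus strand): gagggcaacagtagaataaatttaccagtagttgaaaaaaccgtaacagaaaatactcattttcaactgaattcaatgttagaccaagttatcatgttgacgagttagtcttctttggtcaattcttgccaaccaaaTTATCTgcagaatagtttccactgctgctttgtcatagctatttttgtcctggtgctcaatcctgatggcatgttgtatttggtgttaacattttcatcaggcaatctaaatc
GGGCGG occurred in 54.5% of the collagen promoters and 53.7% of all promoters, CCAAT in 27.3% and 32.7%, TATAAA in 18.2% and 9.00%, and AGATAA in 9.09% and 7.09%. COL6A2 holds 4 matches to GGGCGG and 1 to TATAAA, COL25A1 holds none of the 4 motifs, and the inner start of COL21A1 lies in sequence of 36% G and C with a CpG ratio of 0.247. A match of letters is not a bound site, and matches may overlap.

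COL4A1 and COL4A2, which encode the chains of the collagen IV found in nearly all basement membranes, start 127 bp apart on opposite strands. The first sequence above holds the bases between their starts and runs on into COL4A2. The highest summit within 1 kb was the same for both starts. It stood at 16.6 and 26.4 times background in hESC cells, 17.2 and 27.7 in hDE cells, 36.5 and 33.5 in hAFE cells, and 17.0 in hPFE cells, strict in all 7 libraries. COL4A3 and COL4A4, the chains of the kidney and lung basement membrane, start 419 bp apart, and the highest summit at the COL4A3 start measured 15.2 and 21.0 times background in hESC cells, 13.8 and 35.4 in hDE cells, 34.2 and 22.1 in hAFE cells, and 10.2 in hPFE cells. The nearest starts of COL4A5 and COL4A6 lie 380 bp apart, and at that COL4A6 start the summit measured 10.9 and 26.2 in hESC cells, 10.5 and 23.3 in hDE cells, 31.5 and 22.1 in hAFE cells, and 7.42 in hPFE cells. Each of the 3 head-to-head pairs thus had a strict summit within 1 kb of at least 1 of its starts in all 7 libraries. The COL4A5 start itself had no peak within 1 kb in hESC replicate 1. Its summit was strict only in hDE replicate 1 and both hAFE libraries.

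The start of COL5A1, the chain that nucleates fibrils with collagen I, measured 29.4 and 46.1 times background in hESC cells, 35.6 and 38.04 in hDE cells, 95.0 and 48.1 in hAFE cells, and 38.9 in hPFE cells. COL11A1, a fibrillar chain of cartilage, measured 48.3 and 37.2 in hESC cells, 36.5 and 54.8 in hDE cells, 36.0 and 57.4 in hAFE cells, and 7.77 in hPFE cells, the lowest of the 7. COL25A1 had the tallest summit among the RefSeq collagen starts in both hAFE libraries, in hESC replicate 2 and in hDE replicate 1. It measured 46.4 and 61.3 times background in hESC cells, 52.0 and 82.4 in hDE cells, 139.6 and 109 in hAFE cells, and 33.4 in hPFE cells. The start of COL6A2, a chain of the beaded filaments that anchor cells, measured 19.4 and 24.2 in hESC cells, 24.2 and 19.0 in hDE cells, 42.8 and 19.2 in hAFE cells, and 16.6 in hPFE cells. Heights were low in hPFE in general. The stage means were mostly higher in hAFE than in hDE, but the single libraries did not keep that order. Strict regions at collagen genes, by the rule of 10 times background, numbered 198 and 441 in the hDE libraries and 470 and 285 in the hAFE libraries. Without further normalisation, log2 differences were taken over the 39718 regions with a peak in all 7 libraries. Their median was −1.36 in hPFE against hAFE, −0.771 in hPFE against hESC and 0.589 in hAFE against hDE. The differences tested below are on quantile-normalised heights and so are relative to these shifts.

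COL21A1, a fibril-associated collagen, has 3 RefSeq starts. The middle start measured 32.7 and 51.3 times background in hESC cells, 33.8 and 86.7 in hDE cells, 92.8 and 89.1 in hAFE cells, and 11.8 in hPFE cells. The inner start had weak summits of 4.27 and 6.06 in hESC cells, no peak in hDE or hAFE, and a strict summit of 17.3 in hPFE cells. It was the only RefSeq collagen start among the gained or lost regions of the 4 comparisons. The start of COL7A1, which forms the anchoring fibrils under the epidermis, measured 15.6 and 9.96 in hESC cells, had no peak within 1 kb in hDE or hAFE, and measured 8.30 in hPFE cells. COL6A3 had at its start a summit of 5.69 in hESC replicate 1 and of 3.64 in hAFE replicate 2, and no peak in the other 5 libraries.

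**Figure D2:**
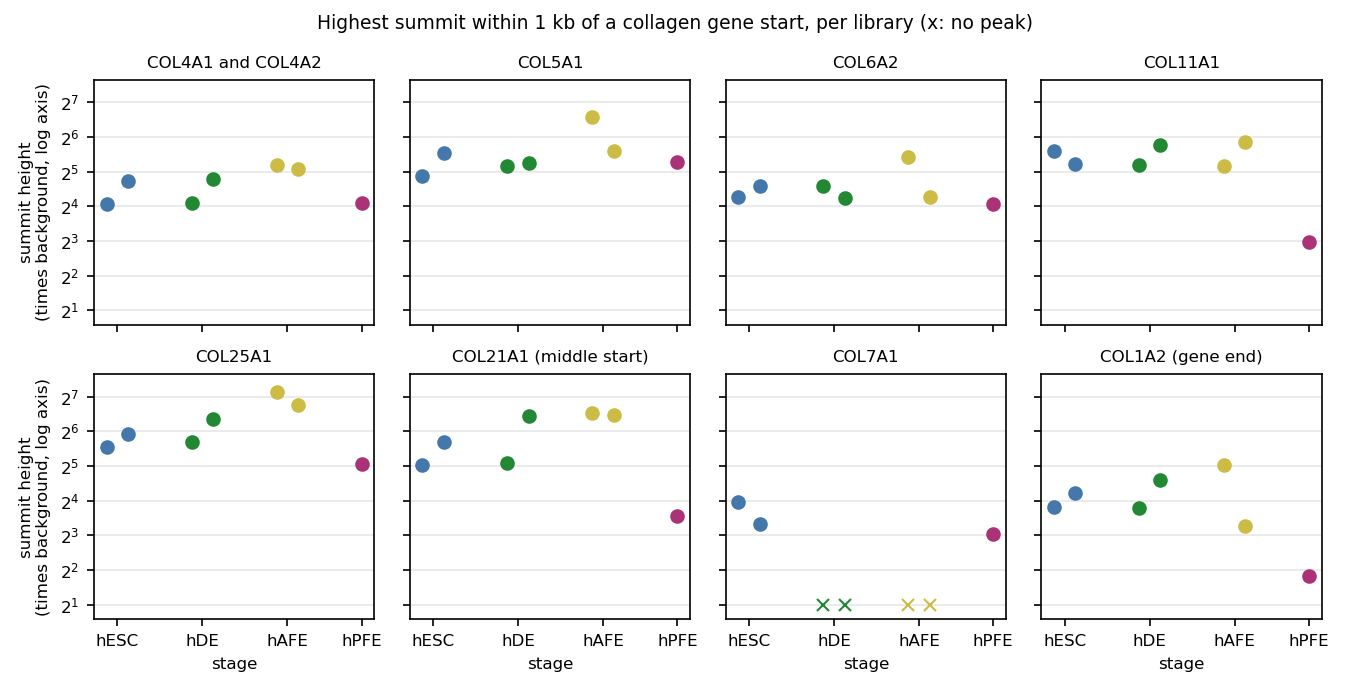
Highest summit within 1 kb of a collagen gene start (for COL1A2, of the lower-coordinate end of the gene), in times background on a log axis, with 1 point per library and the stages in order. Crosses mark libraries without a peak. COL6A2, COL11A1, COL25A1, the middle start of COL21A1 and COL1A2 have their lowest value in hPFE, at 16.6, 7.77, 33.4, 11.8 and 3.53. COL7A1 has there the lowest of its measured summits, at 8.30, and COL4A1 and COL5A1 do not have their lowest value in hPFE.

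For COL1A1, COL1A2, COL2A1, COL3A1, COL5A2, COL6A1, COL6A5, COL8A1, COL9A3, COL14A1, COL20A1 and COL22A1, both ends of the gene were examined. COL1A1 and COL1A2 encode the chains of collagen I, the main protein of bone and skin. The higher-coordinate end of COL1A1 measured 19.4 and 29.2 times background in hESC cells, 24.2 and 26.6 in hDE cells, 69.8 and 24.9 in hAFE cells, and 21.0 in hPFE cells, strict in all 7 libraries. The lower-coordinate end of COL1A2 measured 14.2 and 18.8 in hESC cells, 14.0 and 24.2 in hDE cells, 32.9 and 9.61 in hAFE cells, and 3.53 in hPFE cells. COL3A1, the fibrillar collagen of vessels and gut, had no peak within 1 kb of either end in any library. COL2A1, the collagen of cartilage, had 1 weak summit of 12.1 in hESC replicate 2 at its higher-coordinate end, but a region 1405 bp inside that end (chr12:48004048-48005333) measured 32.7 and 22.3 in hESC cells, 23.8 and 36.9 in hDE cells, 122 and 101 in hAFE cells, and 16.8 in hPFE cells. COL1A1, COL1A2, COL5A2, COL6A1, COL6A5, COL8A1, COL9A3, COL14A1 and COL22A1 each had 1 end with a peak in all 7 libraries. That of COL6A1 stood at 18.0 and 27.9 in hESC cells, 18.6 and 22.2 in hDE cells, 42.8 and 29.6 in hAFE cells, and 16.6 in hPFE cells.

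In hDE against hESC, the question was which collagen chromatin opens or closes as stem cells become endoderm. At collagen genes 30 regions were gained, 5.20% of the 577, against 5.43% of all regions, and 7 were lost, 1.21% against 1.15%. The gains touched 19 of the 44 genes (43.2%, against 21.8% of all protein-coding genes, which are shorter) and the losses 6 genes (13.6%, against 7.29%). COL4A1, COL11A1 and COL25A1 each gained 4 regions, COL19A1 gained 3, and COL8A1, a network collagen of vessel and corneal basement membranes, and COL28A1 gained 2. COL26A1 lost 2, and COL13A1, COL24A1, COL14A1, COL7A1 and COL27A1 lost 1 each. Of the 30 gained regions 25 lay inside a collagen gene, and none within 1 kb of a collagen gene end. Their summits had a median of 13.2 times background in hDE replicate 1 and 35.2 in hDE replicate 2. Depth differed between the stages, with backgrounds of 4.58 and 7.94 in hDE libraries and 2.11 and 4.62 in hESC libraries. Between hDE replicate 1 and hESC replicate 2, whose backgrounds are close, 39 collagen regions were strict in hDE and absent from hESC (6.76%, against 7.64% of all regions), and 30 the reverse (5.20%, against 5.09%). With a stage represented by 1 library the counts grow, to 50 gained without hDE replicate 1, and to 24 and 15 lost without hESC replicates 1 and 2.

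In hAFE against hDE, 8 collagen regions were gained, 1.39% against 2.04% of all regions, and 19 were lost, 3.29% against 3.20%. The gains touched 8 genes (18.2%, against 11.8%) and the losses 12 genes (27.3%, against 13.7%). COL5A2 gained 2 regions, and COL28A1, COL26A1, COL24A1, COL7A1, COL22A1 and the shared window of COL4A3 and COL4A4 gained 1 each. COL25A1 lost 5, and COL14A1, COL11A1, COL24A1 and COL19A1 lost 2 each. Gains numbered 14 without hDE replicate 2, 28 without hAFE replicate 1 and 23 without hAFE replicate 2, and losses 35 without hDE replicate 1. With strict regions defined by a summit of at least 10 times background in place of rank, 21 were gained and 16 lost. Gains also outnumbered losses with the 100000 strongest regions as strict (50 and 40), with a −log10 q of 5 (63 and 49) and without hAFE replicate 1 (28 and 23), so the excess of losses depends on these choices.

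In hPFE against hAFE, 49 collagen regions were gained, 8.49% against 8.45% of all regions, and 27 were lost, 4.68% against 4.17%. The gains touched 28 genes (63.6%, against 33.0%) and the losses 19 (43.2%, against 21.3%). COL25A1 gained 6, COL5A2, COL24A1 and COL5A1 gained 4 each, and COL8A1 and COL14A1, a fibril-associated collagen of tendon and skin, gained 3 each. COL22A1 and COL4A6 lost 3 each, and COL5A2, COL6A6, COL19A1, COL25A1 and COL26A1 lost 2 each. The shared window of COL4A3 and COL4A4 also lost 2. The 49 gained summits ranged from 6.18 to 20.7 times background in hPFE cells, with a median of 10.4, whereas the 27 lost had medians of 30.6 and 17.7 in the hAFE libraries. The lowest strict summit of hPFE stood at 6.01 times background, below the 15.3 and 8.83 of the hAFE libraries. With strict regions defined by at least 10 times background, there were 30 gains and 42 losses. A −log10 q of 5 gave 117 gains and 135 losses, again the reverse order. The losses numbered 46 and 61 without hAFE replicates 1 and 2.

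In hPFE against hESC, the ends of the series, 61 collagen regions were gained, 10.6% against 13.4% of all regions, and 36 were lost, 6.24% against 6.61%. The gains touched 33 genes (75.0%, against 45.8%) and the losses 25 (56.8%, against 34.9%). COL25A1 gained 9 regions and lost 4, COL24A1 gained 5, COL18A1 and COL5A1 gained 4 each, and COL5A2 gained 4 and lost 4. COL26A1 and COL20A1 lost 3 each. By the rule of 10 times background 34 were gained and 39 lost. Losses numbered 80 and 62 without hESC replicates 1 and 2, beside 73 and 74 gains, so that losses outnumbered gains without hESC replicate 1. The shares of collagen regions gained and lost lay near those of all regions in each of the 4 comparisons. This comparison shares its libraries with the others and is no independent view of the same regions.

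**Figure D3:**
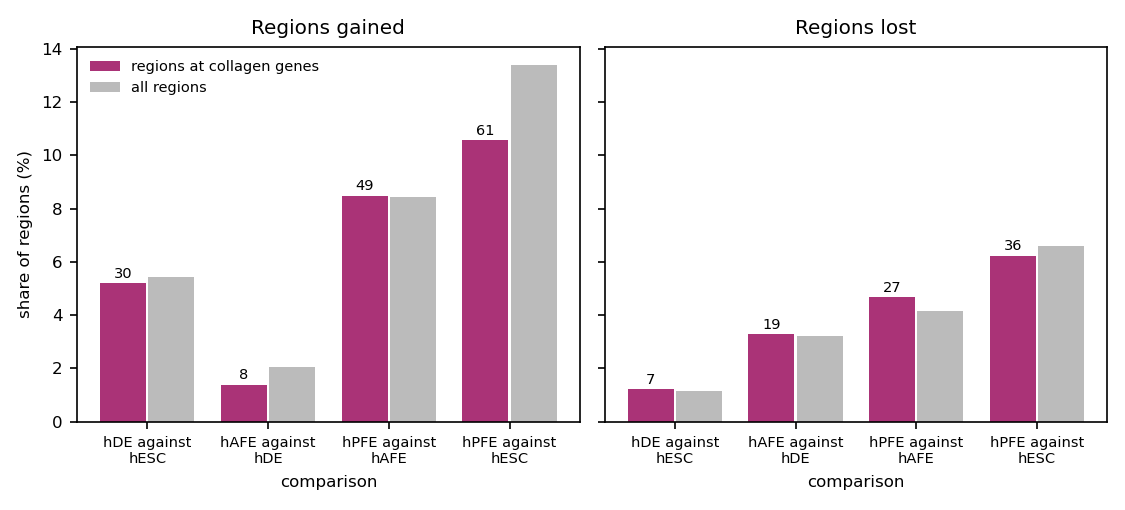
Share of regions gained (left) and lost (right) in each comparison, for the 577 regions at collagen genes (purple, with the number of regions above the bar) and for all 129577 regions (grey). The purple and grey bars lie close together in each comparison, from 1.21% against 1.15% lost in hDE against hESC to 10.6% against 13.4% gained in hPFE against hESC.

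Sorted by stage, 36 collagen regions were strict in hPFE with no peak in the other 6 libraries (6.24%, against 6.24% of all regions), 12 were strict in both hDE libraries and had no peak elsewhere (2.08%, against 1.99%), 3 in hAFE (0.520%, against 0.594%) and 2 in hESC (0.347%, against 0.610%). The hAFE group lay at COL5A2 and COL22A1 and the hESC group at COL13A1 and COL24A1. The hPFE group rests on 1 library. Its summits were low, from 6.18 to 20.7 times background, beside 22.7 to 56.0 in hDE replicate 2 for the hDE group.

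At the collagen IV genes, the tallest of the gains in hDE against hESC was 1 of the 4 at COL4A1. The region at chr13:110186161-110187454, 37685 bp inside COL4A1, measured 40.6 and 64.5 times background in hDE cells, had no peak in hESC, and had 4.05 and 3.64 in hAFE and no peak in hPFE. It was thus tall in both hDE libraries and near the floor or absent in the other 5. The region at chr13:110196947-110197667 measured 18.3 and 36.1 in hDE cells, 39.2 and 14.0 in hAFE cells, and had no peak in hESC or hPFE. Another, at chr13:110226275-110226722, measured 12.2 and 27.6 in hDE cells, 5.41 in hAFE replicate 1 and 3.00 in hPFE cells. The last of the 4, at chr13:110312491-110313066, lies 5492 bp inside COL4A2 and measured 12.9 and 31.6 in hDE cells, 28.8 and 4.68 in hAFE cells, and 11.7 in hPFE cells. COL4A1 accordingly had 8 and 6 strict regions in hESC cells, 12 and 11 in hDE cells, 9 and 9 in hAFE cells, and 5 in hPFE cells. Its region at chr13:110266952-110267572 went the other way, at 22.3 and 39.6 times background in hESC cells, 8.52 and 16.9 in hDE cells, 9.09 in hAFE replicate 2, and no peak in hAFE replicate 1 or hPFE.

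**Figure D4:**
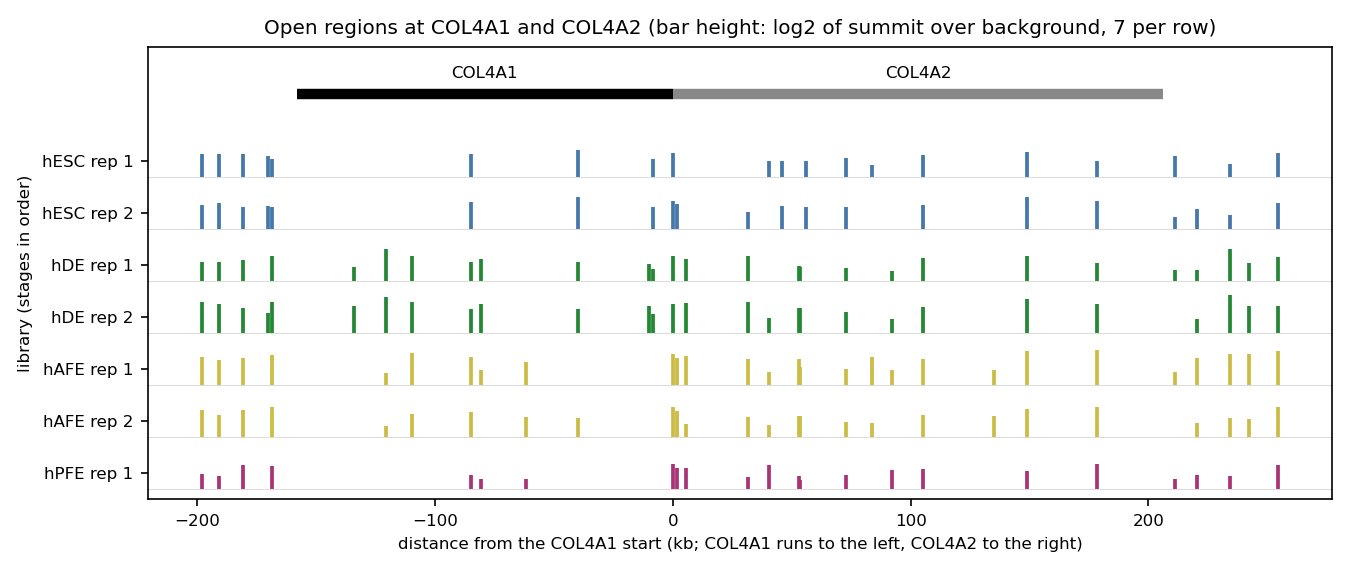
Open regions along COL4A1 (black) and COL4A2 (grey), which run in opposite directions from starts 127 bp apart, with distance from the COL4A1 start in kb on the x axis and 1 row per library in the order of the stages. Bar height is the log2 of summit height over background; the tall hDE bars within COL4A1 include the region of 40.6 and 64.5 times background that has no peak in hESC or hPFE.

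The window shared by COL4A3 and COL4A4 held a region at chr2:227127039-227127563, inside COL4A4, which measured 12.2 and 26.3 times background in hDE cells, 36.9 and 36.9 in hAFE cells, and had no peak in hESC or hPFE. A region at chr2:227204252-227204981, inside COL4A3, measured 55.0 and 23.1 in hAFE cells and 3.32 in hESC replicate 1, and had no peak in hDE or hPFE. COL4A6 had 2 and 4 strict regions in hESC cells, 6 and 3 in hDE cells, 10 and 9 in hAFE cells, and 3 in hPFE cells, and thus most in both hAFE libraries. COL4A5 gained 2 regions in hPFE against hAFE, of 6.89 and 6.54 times background, and lost none.

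Among the fibrillar collagens, COL11A1 had most strict regions in both hDE libraries, with 4 and 2 strict regions in hESC cells, 8 and 8 in hDE cells, 3 and 5 in hAFE cells, and 4 in hPFE cells. Its regions at chr1:102993843-102995333 and chr1:103017646-103018740 measured 14.6 and 48.6, and 22.7 and 43.7 times background in hDE cells and had no peak in any other library. COL5A2 had a region of that kind at chr2:189308064-189309133, with 28.4 and 56.0 in hDE cells. The region of COL5A2 at chr2:189217378-189218167 measured 23.7 and 30.7 in hESC cells, 30.6 and 81.5 in hDE cells, and 5.41 and 8.57 in hAFE cells, and had no peak in hPFE. COL5A1 gained 4 regions in hPFE, from 7.42 to 15.5 times background, none of which had a peak in hAFE or hESC. Of COL24A1's 4 gains in hPFE against hAFE, none had a peak in any of the other 6 libraries, and their summits ran from 7.24 to 12.5. COL1A1 had 1 gain in hPFE, of 7.95, and COL1A2 had 1 region, at chr7:94404213-94404693, with 6.99 and 22.7 in hDE and no peak elsewhere. COL3A1 shared with COL5A2 a gain of 7.24 in hPFE cells, and COL27A1 lost 1 region in hDE. COL2A1 and COL5A3 gained and lost no region in any comparison, as did COL6A3 and COL9A2, and COL11A2 gained 1 in hPFE against hAFE.

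Of the fibril-associated collagens, COL20A1 and COL16A1 had most strict regions in hESC. COL20A1 had 5 and 8 strict regions in hESC cells and 1 in each other library, and COL16A1 had 8 and 11 in hESC cells, 4 and 2 in hDE cells, 5 and 4 in hAFE cells, and 4 in hPFE cells. At COL20A1, 5 of the 9 regions lie inside or at the end of another gene, among them NKAIN4 and CHRNA4. The region at chr20:63352033-63352852 measured 12.8 and 32.0 times background in hESC cells, 7.86 in hDE replicate 1, 8.56 and 8.05 in hAFE cells, and had no peak in hPFE. COL19A1 gained 3 regions in hDE, of which those at chr6:69893303-69894097 and chr6:70111651-70112459 had no peak in another stage and measured 13.3 and 30.9, and 10.5 and 36.1. Its region at chr6:69913502-69914565 measured 11.4 and 13.9 in hESC cells, 36.0 and 74.4 in hDE cells, and 51.8 and 50.4 in hAFE cells, and had no peak in hPFE. COL12A1, which lies along collagen I fibrils, gained 1 region in hPFE against hAFE, of 15.5, and lost none in that comparison. COL9A1 had 1 region that was strict in hDE alone, at 16.8 and 47.5, and COL9A3 lost 1 in hPFE against hAFE. COL21A1 gained in hDE a region inside the gene (chr6:56204043-56204881) that measured 10.0 and 50.5 in hDE cells and 25.7 and 22.1 in hAFE cells, had no peak in hESC and stood at 3.00 in hPFE cells. COL22A1 lost 3 regions in hPFE against hAFE, of which 1 inside the gene stood at 37.8 and 16.1 in hAFE cells and had no peak in any other library. COL14A1 had a region inside the gene that measured 12.3 and 14.5 in hESC cells and 14.5 in hPFE cells and had no peak in hDE or hAFE.

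The transmembrane collagens include COL25A1, the collagen gene with the most regions, which had 10 and 8 strict regions in hESC cells, 10 and 14 in hDE cells, 12 and 8 in hAFE cells, and 14 in hPFE cells. Of its 4 gains in hDE, those at chr4:108767494-108768213, chr4:108828334-108829060 and chr4:109128502-109129122 had no peak at another stage, with 14.2 and 48.9, 8.08 and 27.6, and 16.6 and 38.4 times background. Its 6 gains in hPFE against hAFE had no peak in any other library and measured 6.89 to 11.7. Its region at chr4:109007837-109008482 measured 9.48 and 18.2 in hESC cells, 12.2 and 49.2 in hDE cells, and had no peak in hAFE or hPFE. COL23A1 gained 3 regions in hPFE against hESC, from 9.72 to 16.6, COL13A1 lost 1 region in hDE that stood at 12.3 and 49.4 in hESC cells, and COL17A1, a hemidesmosome protein of skin, lost 1 in hPFE against hAFE. COL18A1, a basement membrane collagen whose end fragment is endostatin, had 3 and 9 strict regions in hESC cells, 6 and 2 in hDE cells, 7 and 6 in hAFE cells, and 11 in hPFE cells. Its 4 gains in hPFE against hESC measured 8.13 to 18.4. COL15A1, the other member of its class, gained 2 and lost 1 in the same comparison.

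Of the short-chain network collagens, COL8A1 had 2 gains in hDE, at chr3:99711452-99711824 and chr3:99713012-99714184, with 13.1 and 33.6, and 17.0 and 52.5 times background. COL8A2 gained 1 region in hDE and 1 in hPFE cells, and COL10A1, the collagen of hypertrophic cartilage, gained 1 in hDE cells, of 29.5 and 48.5, which lies inside NT5DC1. For collagen VI, COL6A1 and COL6A2 shared 1 gain in hPFE, of 11.3, COL6A6 gained 1 in hDE cells, of 12.4 and 24.4, and COL6A5 and COL6A6 shared a region lost in hPFE that stood at 21.2 and 18.2 in hAFE cells. COL26A1 had a region at chr7:101390680-101391238 that measured 14.7 and 16.5 in hESC cells and 35.6 and 34.5 in hAFE cells and had no peak in hDE or hPFE. COL7A1 had a region of the same kind, which lies at UCN2 and measured 21.8 and 30.3 in hESC cells and 51.4 and 25.7 in hAFE cells. COL28A1 gained 2 regions in hPFE against hAFE, of 19.4 and 20.7, neither with a peak at another stage.

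Heights could be tested at the 204 collagen regions with a peak in all 7 libraries, in a limma fit to 39718 such regions over the genome. The regions called at an adjusted p of 0.05 were 11 in hDE against hESC (6 higher, 5 lower), 9 in hAFE against hDE (6 and 3), 6 in hPFE against hAFE (1 and 5) and 12 in hPFE against hESC (3 and 9). Over all regions the called shares were 7.69%, 6.11%, 2.90% and 7.71%. By direction these were 4.48% higher and 3.21% lower, 2.99% and 3.12%, 1.37% and 1.54%, and 3.68% and 4.03%. The calls fell on 29 different collagen regions, and the hPFE library, alone in its stage, was assumed to vary as the others do. The median log2 difference over the 204 regions was −0.0753, 0.0730, 0.0209 and −0.0150, and over all 39718 regions −0.0246, 0.0194, 0.00938 and 0.0278. The counts and their directions depended on the scaling. Without normalisation beyond the background they were 2 in hDE against hESC (2 higher, 0 lower) and 3 in hAFE against hDE (3 and 0). They were 25 in hPFE against hAFE (0 and 25) and 2 in hPFE against hESC (0 and 2). With median centring they were 11 in hPFE against hAFE (3 and 8). Over all 39718 regions the calls moved the same way. The main fit gave 3054, 2428, 1153 and 3062 calls over all regions. Without normalisation there were 164, 426, 4685 (7 higher, 4678 lower) and 326. Median centring gave 1784 in hPFE against hAFE. The counts at collagen genes also rested in part on single libraries, as did those over all regions, which fell too in each fit named next. They were 5 without hESC replicate 2, 4 without hDE replicate 2 and 7 without hAFE replicate 2 in hDE against hESC, and 3 without hDE replicate 2, 5 without hAFE replicate 1 and 4 without hAFE replicate 2 in hAFE against hDE. In hPFE against hAFE the count was 2 without hAFE replicate 2, and limma called 0 without hAFE replicate 1, with 14 at an unadjusted p under 0.05. Tested regions with the summit within 1 kb of a RefSeq collagen start numbered 20. Of these, 0 were called in hDE against hESC, where the log2 differences ran from −0.96 to 0.89. The calls numbered 0 in hAFE against hDE, 1 in hPFE against hAFE and 2 in hPFE against hESC. In simulated data for hDE against hESC, limma called 5 of 100 planted log2 differences of size 1 and 83 of 100 of size 2. These were planted among 39718 regions without other differences. The real fit called 7.69% of its regions, a far larger share than was planted, so its limit on p was less strict. The simulated shares may thus be lower than those of the real fit, which were not measured. The absence of a call at these starts was not taken as evidence that a height did not change.

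In hDE against hESC, the region with the smallest adjusted p lay 28098 bp beyond COL4A2 and inside RAB20 (chr13:110540849-110541888). It measured 41.5 and 80.0 times background in hDE cells, against 4.27 and 5.19 in hESC cells, and rose by 3.77 on the log2 scale (SE 0.459, limma adjusted p = 1.08e-11). A region inside COL22A1, a collagen of the muscle-tendon junction, measured 28.2 and 65.0 in hDE cells, against 5.21 and 4.55 in hESC (log2 difference 3.24, SE 0.451, limma adjusted p = 2.04e-09). The region 19976 bp outside COL15A1 (chr9:98923437-98924499) measured 24.9 and 42.2 in hDE cells, against 3.32 and 6.06 in hESC (log2 difference 3.07, SE 0.476, limma adjusted p = 8.68e-08). The libraries of the stages did not overlap at any of these, but the regions were picked by adjusted p, so this adds no support. Lower in hDE were a region 6061 bp outside COL26A1 (chr7:101564246-101565273), with 4.37 and 6.17 in hDE cells, against 12.8 and 38.5 in hESC (log2 difference −2.21, SE 0.481, limma adjusted p = 0.000306), and a region 46060 bp outside COL11A2 (log2 difference −1.91, SE 0.477, limma adjusted p = 0.00239). The COL26A1 call ended without hESC replicate 2 (limma adjusted p = 0.0530) and the COL11A2 call without hDE replicate 2 (0.248). Without normalisation beyond the background the calls at COL15A1, COL26A1 and COL11A2 ended (0.0655, 0.369 and 0.530), and those at COL4A2 and COL22A1 held.

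In hAFE against hDE, a region inside COL23A1 (chr5:178398930-178400037) measured 58.1 and 32.7 times background in hAFE cells, against 3.28 and 5.67 in hDE (log2 difference 2.81, SE 0.479, limma adjusted p = 2.37e-06). A region inside COL26A1 (chr7:101378613-101379296) measured 47.3 and 20.3 in hAFE cells, against 3.06 and 5.42 in hDE (log2 difference 2.46, SE 0.475, limma adjusted p = 4.10e-05). Both calls held in each alternative fit. The region outside COL4A2 described above measured 35.6 and 9.35 in hAFE cells, and fell by 2.18 on the log2 scale relative to hDE (limma adjusted p = 0.000203), and that outside COL15A1 measured 14.0 and 5.19 and fell by 2.36 (limma adjusted p = 9.36e-05). A region 37883 bp outside COL28A1, inside MIOS, measured 7.66 and 10.4 in hAFE cells, against 20.3 and 57.7 in hDE (log2 difference −2.35, SE 0.456, limma adjusted p = 4.55e-05). These 3 calls ended without further normalisation (0.367, 0.286 and 0.258). The COL28A1 call also ended without hDE replicate 2 (0.0720) or hAFE replicate 1 (0.0639), and the COL4A2 call without hDE replicate 2 (0.0635) or hAFE replicate 2 (0.157). The hDE libraries enter this comparison and the one before it.

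In hPFE against hAFE, a region inside COL6A5 (chr3:130395640-130396543) measured 28.6 times background in hPFE cells, against 12.6 and 12.5 in hAFE (log2 difference 2.27, SE 0.547, limma adjusted p = 0.00464). The same COL6A5 region measured 11.35 and 41.2 times background in hDE cells, so its hPFE height lay between those of the hDE libraries. The other 4 with the smallest adjusted p were lower in hPFE. A region 20472 bp outside COL1A2 (chr7:94374088-94375934) measured 2.83 in hPFE cells, against 30.6 and 23.1 in hAFE (log2 difference −2.03, SE 0.546, limma adjusted p = 0.0150). The middle start of COL21A1 differed by −1.39 (SE 0.387, limma adjusted p = 0.0205) and a region 5877 bp inside COL21A1 by −2.03 (SE 0.582, limma adjusted p = 0.0271). A region 15793 bp outside COL2A1 (chr12:48021618-48022281) measured 6.18 in hPFE cells, against 97.3 and 35.3 in hAFE (log2 difference −1.63, SE 0.464, limma adjusted p = 0.0260). Without hAFE replicate 1 all 5 calls ended, with limma adjusted p of 0.192 at COL6A5, 0.141 at COL1A2, 0.109 and 0.274 at COL21A1 and 0.572 at COL2A1. Without hAFE replicate 2 those at COL1A2 and COL21A1 ended (0.202, 0.370 and 0.0841), and the COL2A1 call also ended without hDE replicate 1 or 2 (0.0605 and 0.0671). The COL6A5 call ended without further normalisation (0.272).

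In hPFE against hESC, a region 5480 bp outside COL22A1 measured 7.95 times background in hPFE cells, against 55.9 and 53.7 in hESC cells, and fell by 2.08 on the log2 scale (SE 0.414, limma adjusted p = 0.000105), in each alternative fit too. A region inside COL4A4 (chr2:227033265-227034040) measured 3.53 in hPFE cells, against 26.5 and 37.0 in hESC (log2 difference −2.39, SE 0.543, limma adjusted p = 0.000893). A region 12311 bp outside COL10A1 and inside NT5DC1 measured 4.24 in hPFE cells, against 30.3 and 38.5 in hESC (log2 difference −2.19, SE 0.554, limma adjusted p = 0.00347). A region 11282 bp outside COL16A1 (chr1:31714412-31715985) measured 11.3 in hPFE cells, against 41.2 and 92.9 in hESC (log2 difference −1.84, SE 0.466, limma adjusted p = 0.00351). The start of COL11A1, whose sequence is given above, differed by −1.69 (SE 0.445, limma adjusted p = 0.00501). The COL11A1 call ended without hESC replicate 1 (0.171) and the COL16A1 call without hESC replicate 2 (0.0550). Without further normalisation those at COL4A4, COL10A1 and COL16A1 ended (0.0546, 0.0851 and 0.0633).

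**Figure D5:**
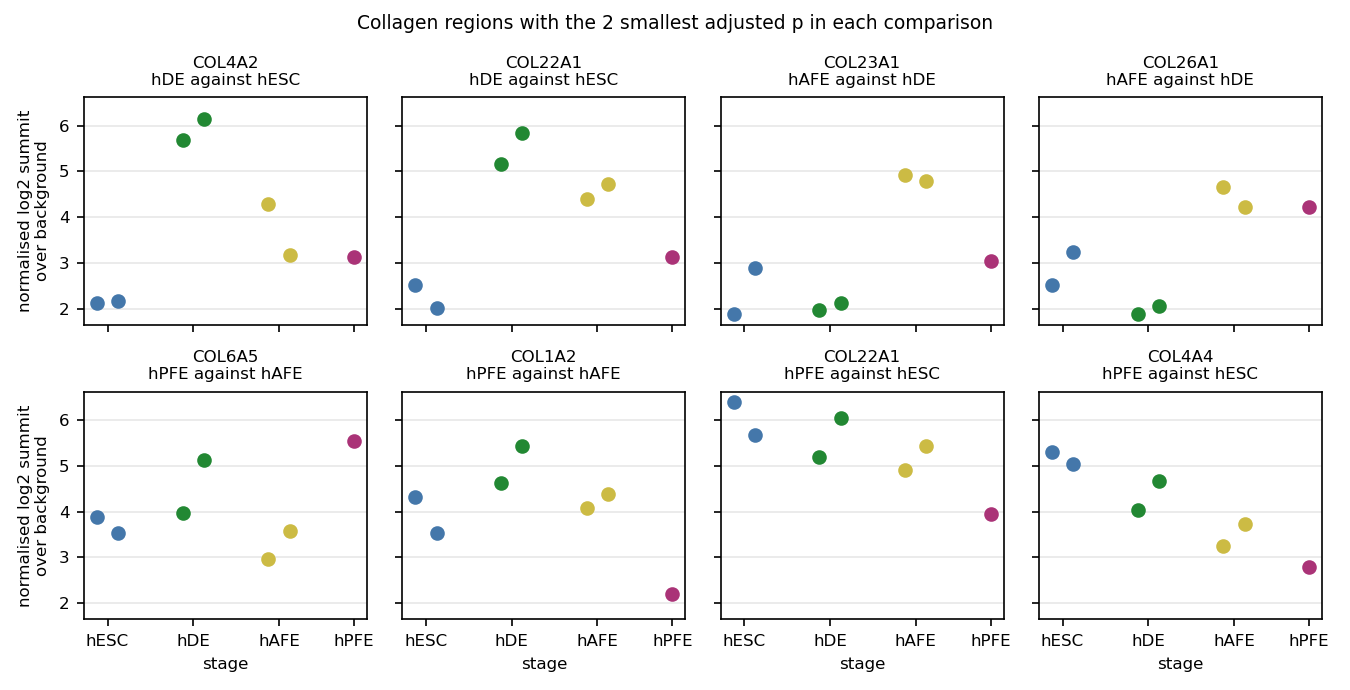
Quantile-normalised log2 summit height over background at the collagen regions with the smallest adjusted p in each comparison, with 1 point per library and the stages in order. The COL4A2 region rises by 3.77 in hDE against hESC, and the COL23A1 region by 2.81 in hAFE against hDE.

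The enzymes that make collagen and the receptors that bind it were examined as 44 genes: 21 of folding and modification, 13 of procollagen cleavage and crosslinking, and 10 receptors. Together they held 444 regions. In hDE against hESC they gained 11 (2.48%, against 5.43% of all regions) and lost 5 (1.1%, against 1.15%), and in hAFE against hDE they gained 2 (0.450%, against 2.04%) and lost 4 (0.901%, against 3.20%). In hPFE against hAFE they gained 30 (6.76%, against 8.45%) and lost 8 (1.8%, against 4.17%), and in hPFE against hESC they gained 43 (9.68%, against 13.4%) and lost 25 (5.63%, against 6.61%). The genes named next are those with the highest counts in a list whose shares were at or below those of all regions. In hDE, P3H2, a prolyl 3-hydroxylase, and ITGA1, a collagen-binding integrin chain, gained 2 regions each. In hAFE, PLOD2, the lysyl hydroxylase of collagen ends, lost 2. In hPFE against hAFE, TLL1, a protease of the family that cleaves procollagen, gained 6 of its 15 regions, ITGA2, the other widespread collagen-binding integrin chain, gained 5 of 14, and ITGA1 gained 3 of 17. ITGA2 had 5 and 3 strict regions in hESC cells, 4 and 4 in hDE cells, 4 and 5 in hAFE cells, and 10 in hPFE cells, the highest count resting on 1 library. In hPFE against hESC, ITGA2 and TLL1 gained 6 each, DDR2, a collagen-activated receptor kinase, and ITGA1 gained 4 each, and P3H2 lost 4. LOX and P4HB, which crosslink collagen and hydroxylate its prolines as part of an enzyme complex, gained and lost no region. Single libraries moved most of these totals. In hDE against hESC, losses were 13, 14 and 10 without hESC replicate 1, hESC replicate 2 and hDE replicate 1, and gains were 19 without the last. In hAFE against hDE, gains were 6, 5, 11 and 10 without hDE replicates 1 and 2 and hAFE replicates 1 and 2, and losses 9 and 8 without hDE replicates 1 and 2. Losses were 18 and 23 in hPFE against hAFE without hAFE replicates 1 and 2, and 53 and 43 in hPFE against hESC without hESC replicates 1 and 2.

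Fibrillar collagens are made mostly by mesenchyme, so the regions of 16 mesenchyme and fibroblast genes were counted beside them. They had 53 and 46 strict regions in hESC cells, 60 and 44 in hDE cells, 49 and 55 in hAFE cells, and 41 in hPFE cells. Of their 123 regions they gained 7 (5.69%, against 5.43% of all regions) and lost 1 (0.813%, against 1.15%) in hDE against hESC, and gained 3 (2.44%, against 2.04%) and lost 5 (4.07%, against 3.20%) in hAFE against hDE. They gained 8 (6.5%, against 8.45%) and lost 4 (3.25%, against 4.17%) in hPFE against hAFE, and gained 10 (8.13%, against 13.4%) and lost 4 (3.25%, against 6.61%) in hPFE against hESC. At the 11 fibrillar collagen genes the strict regions numbered 58 and 66 in hESC cells, 56 and 54 in hDE cells, 53 and 56 in hAFE cells, and 58 in hPFE cells. Neither list stood above its hESC range in hPFE. At 6 neural and neural crest genes the counts were 27 and 32, 25 and 20, 25 and 25, and 21 in the same order. The part of other cell types in the collagen regions was not tested.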

How the data were processed

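The deposited data were peak lists, 1 for each of the 7 ATAC-seq libraries. Per the submitters' processing notes the build was hg38 and DiffBind was used. The tokens of the deposited file names record trimming, duplicate and mitochondrial read removal, counting at Tn5 cut sites, peaks kept at p up to 0.01 and to at most 300000 by number, and a last filter, which removed 626 to 1492 peaks per library. Aligner and peak caller: not given in the sources used here. Each deposited peak holds a fold enrichment over local background, used as the authors' ratio to recover pileups. Each deposited −log10 p ranked regions within a library, and −log10 q served an alternative. The deposited score is a display value and was not used.

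Fold and −log10 p gave a whole-number summit pileup in 100% of peaks, within 0.001 of −log10 p, and the most frequent local background gave depth. Pileup over that background is the height. Peaks overlapping by at least 1 bp were merged, the top 50000 regions per library were called strict, and strict regions on chromosomes 1 to 22 and X were joined over libraries. Absence means no deposited peak, not no signal. Heights were tested with limma 3.58.1 (R 4.3.3) with quantile normalisation, a trended prior and Benjamini-Hochberg adjustment over 39718 regions, threshold 0.05. All 7 libraries shared 1 spread, with 3 residual degrees of freedom beside 346 from the prior. The SE and p of a region thus rest mostly on the trend over all regions and little on its own replicates. The procedures were tested on simulated data, and the share of planted differences that limma called is given above. Other steps used Python 3.11.15, pandas 2.3.3, numpy 2.4.6 and scipy 1.17.1. Genes and promoters came from RefSeq tables of GRCh38.p14. Genes were described in full by rule: in each comparison the top 5 by number of gained regions and the top 5 by number of lost regions, the 5 tested regions with the smallest adjusted p, and always 14 main chains (COL1A1, COL1A2, COL2A1, COL3A1, COL4A1, COL4A2, COL5A1, COL5A2, COL6A1, COL6A2, COL6A3, COL11A1, COL12A1 and COL18A1). Of the biosynthesis and receptor genes it was the top 3, and LOX and P4HB were added. Other genes and regions were named to account for every member, after their values were seen. The members and all gene lists were chosen with earlier results of these data known. Alternatives were other limits for strict regions, other overlaps and windows, other normalisations, the replicate number as a block and each library left out.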

Additional observations from a re-analysis of the deposited data

How the results depend on the processing

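Counts of gained and lost collagen regions depended on the limit for strict regions. The 20 differences named from the limma fits kept their direction in every alternative fit, and gained and lost regions were not followed one by one. In the order hDE against hESC, hAFE against hDE, hPFE against hAFE and hPFE against hESC, the 25000 strongest regions per library gave 14, 4, 18 and 21 gained and 0, 12, 10 and 8 lost. The 100000 strongest gave 58, 50, 144 and 174 gained and 33, 40, 105 and 98 lost. At biosynthesis and receptor genes the 25000 strongest gave 2, 0, 6 and 13 gained and 1, 0, 1 and 11 lost, and the 100000 strongest gave 26, 13, 89 and 113 gained and 15, 20, 41 and 60 lost. A summit of 10 times background gave 21 gained in hAFE against hDE, 30 gained and 42 lost in hPFE against hAFE and 34 gained in hPFE against hESC. A −log10 q of 5 gave 70, 63, 117 and 142 gained and 19, 49, 135 and 73 lost, so that losses also outnumbered gains in hPFE against hAFE. An overlap of 0.5 of the region gave 55 lost in hPFE against hAFE and 57 in hPFE against hESC. Strict regions at collagen genes numbered 113 and 104 in hESC cells, 108 and 92 in hDE cells, 106 and 113 in hAFE cells and 101 in hPFE cells among the 25000 strongest, and 473 and 488, 449 and 417, 476 and 473, and 463 among the 100000 strongest. They numbered 122 and 130, 123 and 121, 135 and 136, and 118 within the gene spans alone. With windows of 10 kb hESC replicate 2 had 162 and hDE replicate 1 had 151. At 10 times background hESC replicate 2 had 395, hDE replicate 2 had 441 and hAFE replicate 1 had 470. With 1 library left out, gained regions ranged from 33 to 50, 9 to 28, 56 to 61 and 73 to 74, and lost regions from 9 to 24, 23 to 35, 46 to 61 and 62 to 80. At biosynthesis and receptor genes they ranged from 14 to 19, 5 to 11, 34 to 37 and 49 to 50 gained and from 6 to 14, 6 to 9, 18 to 23 and 43 to 53 lost. Fewer libraries make each rule easier to meet. The limma counts ranged from 4 to 11, 3 to 10, 0 to 9 and 9 to 13. They were 2, 3, 25 and 2 without normalisation beyond the background, and 11 in hPFE against hAFE with median centring. In these fits the counts over all regions moved in the same direction. The replicate number paired no samples, with correlations of deviations of −0.031, −0.285 and 0.186 between stages; with the replicate block limma called 10, 8, 2 and 10, and 3 of the calls named in hPFE against hAFE ended, at COL21A1 (0.137 and 0.0802) and COL2A1 (0.0930). The cause of these changes was not tested. For the single regions named, the call ended in 18 fits with a library left out and held in 102, and it ended in 13 fits under another setting and held in 67. Depth differs between libraries, so absence of a peak in a shallow library is weaker evidence than in a deep one.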
